A study of Mus musculus with 4 samples.

Results

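SR proteins, hnRNPs and the RBM family are RNA-binding proteins that act together on pre-mRNA splicing, export, stability and translation. Their genes were taken from the deposited count table by symbol. Protein-coding rows named Srsf, Tra2a, Tra2b, Hnrnp or Rbm (followed by a digit or x) were kept, with Cirbp, Tia1, Tial1 and Sfswap added, which gave 78 of the 28193 rows. They comprised 13 SR proteins, 20 hnRNPs, 40 RBM proteins, the cold-induced pair Rbm3 and Cirbp, the 2 TIA proteins and Sfswap. The rule uses names and no measured value, but it was written with earlier results of these data known. By family symbol alone, without Cirbp, Tia1, Tial1 and Sfswap, it gives 74 genes.

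The 4 libraries came from fosTRAP-seq, in which mRNA bound to HA-tagged ribosomes is pulled out of neurons that expressed c-Fos in a chosen time window. Male C57BL/6J mice of 3 to 5 months received an AAV8 vector with a tamoxifen-dependent Cre (ERT2-Cre-ERT2-PEST) under a c-Fos promoter and an AAV9 vector with a Cre-dependent HA-mRpl22-IRES-eYFP under the EF1a promoter. All mice, those later called NSD included, were given 4-OHT and sleep deprived for 5 h by gentle handling on day 0, so that the tagged CA1 neurons of both groups had been active during that first sleep loss. The groups parted on day 7, when SD mice lost 5 h of sleep again from ZT0 and NSD mice were left undisturbed until the collection at ZT5. Every library pooled the CA1 of 5 mice, and each group had n = 2 libraries. Batch 1 held NSD 1 and SD 1, and batch 2 held NSD 2 and SD 2. The sample labels name dorsal hippocampus and a cFos-Cre:Ribotag genotype, where the methods describe microdissected CA1 and the viral vectors. Each library is a pool, no unbound input was analysed here, and in such bulk material fewer cells of a type and less RNA per cell cannot be told apart.

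SR proteins carry RNA recognition motifs and a tail rich in arginine and serine, bind exonic enhancers and generally promote exon inclusion. Their tails are phosphorylated by the CLK and SRPK kinases, which controls their activity and their passage between nuclear speckles and the rest of the cell. hnRNPs coat nascent transcripts and often act against SR proteins at the same exons. Many genes of both families tune their own mRNA through alternative exons or introns that lead to decay or nuclear retention. Rbm3 and Cirbp are the classical cold-shock members, whose mRNAs rise when temperature falls, and in rodents brain temperature is known to be higher in wakefulness than in sleep.

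Counts summed to between 153511673 and 195910205 per library, and the 78 genes held 0.329% to 0.367% of them. Each group had 2 libraries, which limits the precision of every comparison. Rpl22, the tagged ribosomal gene, stood at 628 and 1045 CPM (counts per library size after scaling that size by its TMM factor) in NSD 1 and NSD 2 and at 610 and 809 in SD 1 and SD 2. Fos, the gene whose promoter drives the Cre, stood at 271 and 513 CPM in NSD and 336 and 375 in SD. NSD 2 was its highest library, the groups overlapped, and its log2 fold change was -0.14 (edgeR adjusted p = 0.827). Markers of pyramidal neurons summed to 5841 and 6230 CPM in NSD and 5809 and 6226 in SD, against 74.0 to 90.5 for markers of dentate granule cells and 561 or less for markers of astrocytes. Those of interneurons summed to between 775 and 883 CPM. Of the 5 pyramidal markers, edgeR called 0 (2 lower at an unadjusted p under 0.05), and 2 were lower with the batch as a block and with DESeq2. Of the 5 CA1 markers, edgeR called 0 (3 lower at an unadjusted p under 0.05), and Fibcd1, Wfs1 and Man1a were lower with the block and with DESeq2, with a list median of -0.35. The CA1 markers summed to 1295 and 1468 CPM in NSD and 1194 and 1323 in SD. The list of markers of oligodendrocytes summed to between 1601 and 1930 CPM, and whether this RNA came from tagged or untagged cells was not tested. All 10 endothelial markers were counted in every library and lay below 0 in log2 fold change (median -0.76). Their summed level was 49.7 and 69.5 CPM in NSD and 40.7 and 26.4 in SD, and edgeR called 0 of them (7 at an unadjusted p under 0.05), while 6 were lower with the batch as a block and 4 with DESeq2. The part of the CA1, pyramidal and endothelial markers in the results on the RNA-binding proteins was not tested.

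A gene was tested where it had more than 5 counts in every library, which 77 members did. Positions are those of the table on build GRCm39. Rbm44, a germ-cell protein, had 4, 7, 8 and 15 counts and was not tested. Differences between SD and NSD were tested with edgeR's quasi-likelihood test on all 22338 genes with Benjamini-Hochberg adjustment, and a gene was called where the adjusted p was under 0.05 and the fold change over 1.2. By this rule 8 of the 77 members were lower in SD (10.4%), namely Rbm3, Cirbp, Srsf5, Srsf11, Hnrnpdl, Rbm25, Tia1 and Sfswap, and 0 were higher. Over all genes tested 2.33% were called lower and 0.77% higher, and over the 15551 protein-coding genes tested 0.54% were called lower and 0.952% higher. At an unadjusted p under 0.05 the members numbered 19 lower (24.7%) and 6 higher (7.79%), against 12.2% and 6.86% of all genes and 5.76% and 8.86% of protein-coding genes. With the batch as a block, 13 members were lower and 3 higher, against 8.47% and 2.99% of all genes and 3.29% and 3.77% of protein-coding genes. DESeq2 called 9 members lower and 2 higher, against 5.8% and 3% of all genes and 1.79% and 3.92% of protein-coding genes. Other fits ended calls. Members called lower numbered 5 with DESeq2's size factors in edgeR, 4 with protein-coding genes only, 2 without a count filter and 0 with the filterByExpr filter (18 at an unadjusted p under 0.05). They numbered 4 without NSD 1 and 4 without SD 2. Outside the cold-induced pair, 6 of the 75 members tested were called lower. Of the 73 tested that carry a family symbol, without Cirbp, Tia1, Tial1 and Sfswap, 5 were called lower (6.85%).

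The SR proteins, hnRNPs and RBM proteins as wholes centred near 0. Over the 77 members the log2 fold changes had a median of -0.05, with -0.001 over the SR proteins, -0.04 over the hnRNPs and -0.01 over the 39 RBM proteins tested, beside -0.02 over all genes and 0.02 over protein-coding genes. With DESeq2's size factors the medians of the SR and RBM proteins were 0.02 and 0.01, beside 0.006 over all genes and 0.04 over protein-coding genes with that scaling. A fold change within 1.2 was seen for 61 of the 77 members. The 2 SD values were below the 2 NSD values for 30 members (39%) and above them for 16 (20.8%), where all genes gave 27.5% and 22% and protein-coding genes gave 20% and 26.5%. Summed over a family, the SR proteins had 545 and 553 CPM in NSD and 509 and 494 in SD, while the hnRNPs had 1798 and 1871 in NSD and 1855 and 1836 in SD. The SR sums did not overlap between groups, and the hnRNP sums did. Srsf5 alone, with mean levels of 88.9 CPM in NSD and 58.8 in SD, made up a large part of the SR difference. The RBM sums were 988 and 993 CPM in NSD and 971 and 959 in SD, close together but without overlap. Within batches the median of the SR proteins was 0.04 in batch 1 and -0.09 in batch 2, so the family median had opposite signs in the 2 batches.

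**Figure D1:**
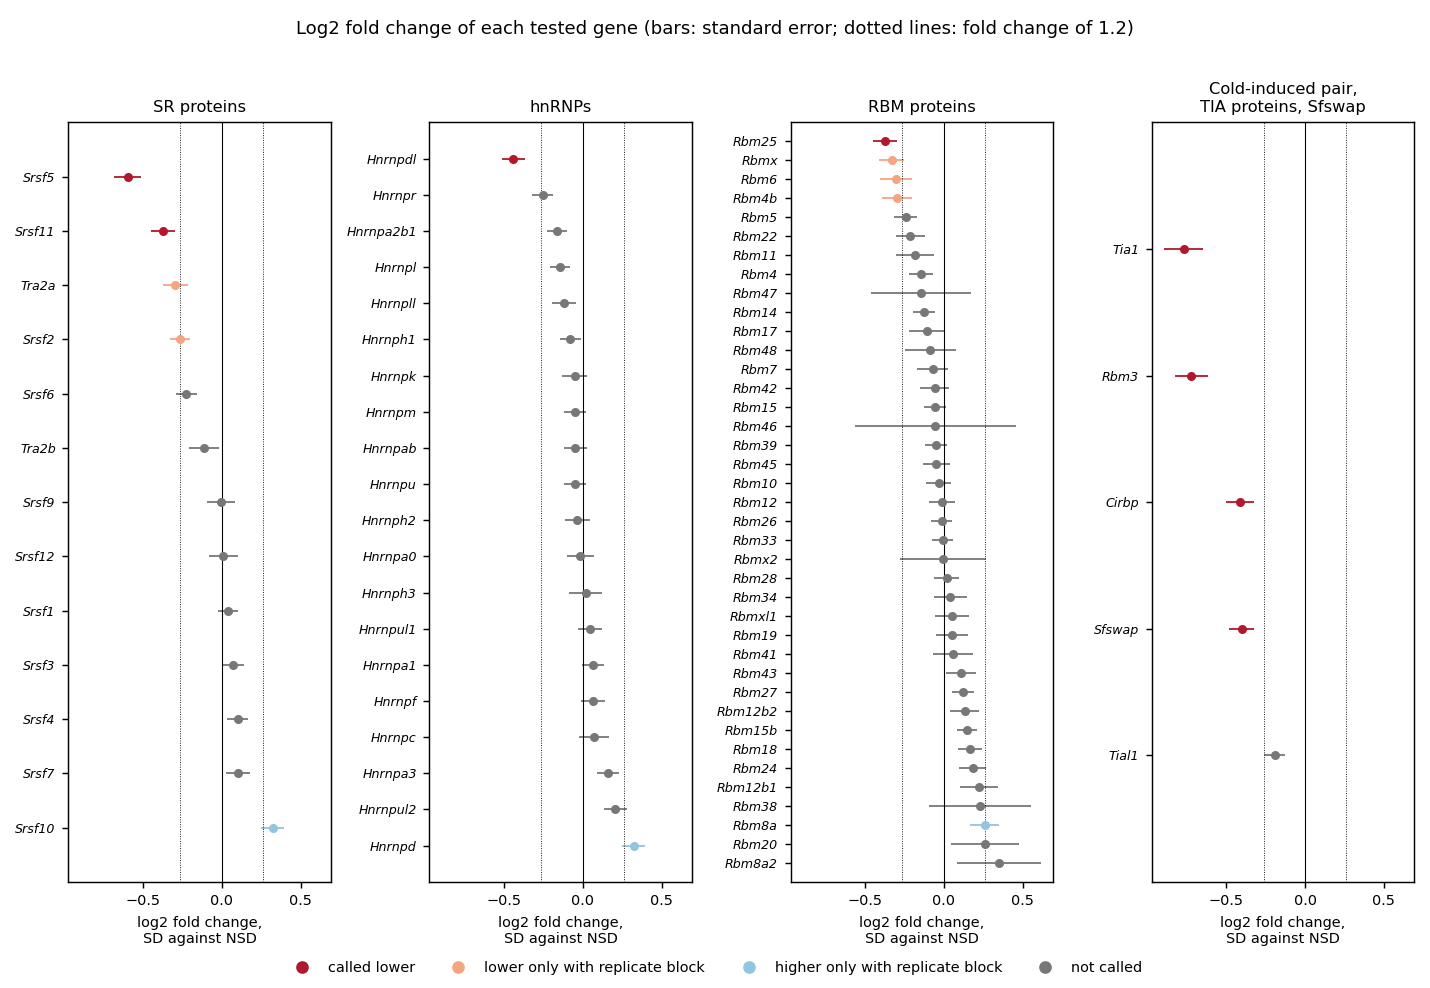
Log2 fold change of SD against NSD (horizontal axis) for each of the 77 tested genes, by family, from edgeR with n = 2 libraries per group. Bars are standard errors, dotted lines mark a fold change of 1.2, and colours give the calls without and with the batch as a replicate block. The points of the SR proteins, hnRNPs and RBM proteins centre close to 0. The called genes Srsf5, Srsf11, Hnrnpdl, Rbm25, Rbm3, Cirbp, Tia1 and Sfswap lie to the left.

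Rbm3 and Cirbp, glycine-rich proteins that bind RNA and sustain translation and mRNA stability in the cold, were both lower in SD. Rbm3 (ENSMUSG00000031167, minus strand of chromosome X, bases 8005214-8012119) stood at 19.4 and 23.0 CPM in NSD 1 and NSD 2 and at 13.4 and 12.3 CPM in SD 1 and SD 2. The groups did not overlap, and the fall was seen in both batches (log2 differences of -0.53 in batch 1 and -0.90 in batch 2). Fitted over all libraries, Rbm3 fell by 0.72 on the log2 scale (standard error 0.11, edgeR adjusted p = 0.0342), from 21.2 ± 2.54 to 12.9 ± 0.827 CPM (s.d., n = 2), a change of -39.3%. Cirbp (ENSMUSG00000045193, plus strand of chromosome 10, bases 80001819-80008620) stood at 26.9 and 28.7 CPM in NSD and at 22.1 and 19.7 CPM in SD. It too did not overlap, but the gap between its closest NSD and SD libraries was narrower. Its log2 fold change was -0.41 (standard error 0.088, edgeR adjusted p = 0.0481). The log2 fold change of Cirbp was -0.31 without SD 2, -0.43 without NSD 1 and -0.36 without NSD 2, and its call was lost in each of these fits. The call of Rbm3 was kept whichever library was left out, with log2 fold changes between -0.81 and -0.59.

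Heat-induced chaperones were described alongside, since they respond to temperature in the opposite direction. Of the 10 measured, 0 were called by edgeR in either direction, with or without the block, and by DESeq2, and 1 had an unadjusted p under 0.05. Their median log2 fold change was 0.08, and 7 lay above 0 and 3 below. The lowest value of the list was -0.64. Dnajb1, a co-chaperone of Hsp70, had the highest value at 0.22 (edgeR adjusted p = 0.221), and Hspa1a stood at 14.9 and 13.8 CPM in NSD and 14.0 and 16.0 in SD.

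The promoter of Cirbp is shown because it is where a mild cold response element has been described. The window holds the 250 bases before the start of the canonical transcript (GENCODE annotation, build GRCm39), at chr10:80003362-80003611 on the plus strand. Capitals mark matches to the mild cold response element TCCCCGCC, the GC box GGGCGG, the E-box CACGTG or the heat shock element GAANNTTC on either strand. The GC box and the mild cold response element share part of their letters on opposite strands.
Cirbp: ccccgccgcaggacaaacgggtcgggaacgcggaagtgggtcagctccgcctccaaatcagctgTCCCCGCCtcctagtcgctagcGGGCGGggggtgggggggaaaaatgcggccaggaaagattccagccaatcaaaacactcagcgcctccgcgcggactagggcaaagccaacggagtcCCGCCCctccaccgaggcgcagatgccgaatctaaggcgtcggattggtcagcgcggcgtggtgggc

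The Cirbp window held 1 mild cold response element, starting 186 bases before the start, 2 GC boxes and 26 CpG dinucleotides. The mild cold response element occurred in 7.69% of the members' windows and 5.87% of the 16943 protein-coding windows. Among the 8 members called lower it was found in 1, which was Cirbp. A match of letters is a description of the window and says nothing of binding.

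Among the SR proteins, Srsf5 and Srsf11 were lower in SD and 0 were called higher, where 1 had an unadjusted p under 0.05 and was called by DESeq2 (Srsf10). Srsf5 (ENSMUSG00000021134, plus strand of chromosome 12, bases 80992278-80997281), an SR protein that binds exonic enhancers, had the highest level per length of the family in NSD, at 47.2 CPM per kb of its canonical transcript, and stood at 31.2 in SD. Its level was 88.0 and 89.7 CPM for NSD and 63.5 and 54.2 CPM for SD. The NSD libraries were close to each other and both SD libraries were well below them. Its log2 fold change was -0.60 (standard error 0.084, edgeR adjusted p = 0.0328), and the call was kept whichever library was left out. Srsf11 (ENSMUSG00000055436, minus strand of chromosome 3, bases 157716110-157742276), an SR protein of the spliceosome also known as p54, stood at 38.0 and 35.1 CPM in NSD and at 29.2 and 27.3 in SD. The groups were apart, and its log2 fold change was -0.37 (standard error 0.078, edgeR adjusted p = 0.0472). Leaving out NSD 1 gave a log2 fold change of -0.28 and leaving out SD 2 gave -0.31, and the call was lost in both fits. With all libraries in, it was also lost with DESeq2's size factors in edgeR (adjusted p = 0.0543). The same held without a count filter, with filterByExpr and among protein-coding genes only.

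Srsf10 (ENSMUSG00000028676, plus strand of chromosome 4, bases 135583058-135597219), known to turn into a splicing repressor when dephosphorylated, had the opposite sign. It stood at 24.5 and 26.1 CPM in NSD and at 31.3 and 32.0 in SD. Both SD libraries were higher, the log2 fold change was 0.32 (standard error 0.075, edgeR adjusted p = 0.0583), and it passed with the block (adjusted p = 0.00579) and with DESeq2 (adjusted p = 0.00365). The ratio of Srsf10 to Srsf5 within a library, which needs no scaling between libraries, was 0.278 and 0.290 in NSD and 0.492 and 0.591 in SD. These are the SR proteins with the largest rise and the largest fall, and each already separated the groups. Their ratio therefore had to separate them too. An exact permutation test of 2 libraries against 2 cannot go below p = 0.333 (two-sided), so these ratios are given as values.

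Srsf2, the speckle protein SC35, and Tra2a, a splicing activator related to the SR proteins, passed with the block alone. Srsf2 stood at 58.0 and 58.1 CPM in NSD and 47.7 and 48.9 in SD (log2 fold change -0.27, edgeR adjusted p = 0.0647, 0.00776 with the block). Tra2a stood at 31.5 and 28.8 CPM in NSD and 24.4 and 24.7 in SD (log2 fold change -0.29, edgeR adjusted p = 0.0840, 0.0133 with the block). Its relative Tra2b stood at 19.1 and 21.4 CPM in NSD and 19.6 and 17.9 in SD, and these groups overlapped. The other SR proteins had log2 fold changes between -0.22 (Srsf6) and 0.10 (Srsf7). Srsf12, the member with the lowest level per length (4.11 CPM per kb in NSD), stood at 12.0 and 12.3 CPM in NSD and 12.4 and 12.1 in SD.

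**Figure D2:**
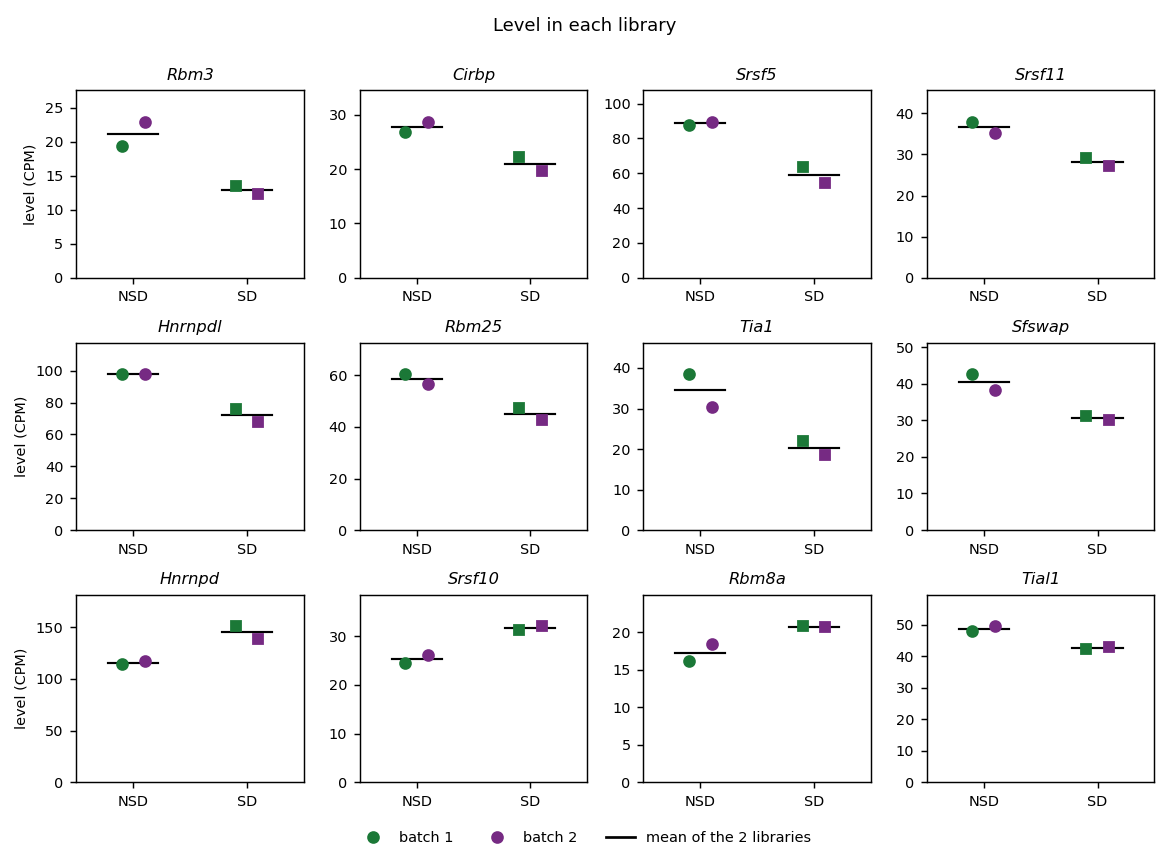
Level in each library in CPM (vertical axis, from 0) for the 8 genes called lower in SD, for Hnrnpd, Srsf10 and Rbm8a, which were higher with the batch as a block, and for Tial1. Points are libraries coloured by batch and lines are means of the 2 libraries per group. In all 12 panels the NSD and SD libraries do not overlap, and the SD points lie above the NSD points for Hnrnpd, Srsf10 and Rbm8a.

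Among the hnRNPs, the close relatives Hnrnpd and Hnrnpdl, whose genes lie near each other on chromosome 5, had opposite signs. Hnrnpdl (ENSMUSG00000029328, minus strand of chromosome 5, bases 100181436-100187523), a splicing regulator that also controls its own mRNA, stood at 97.7 and 97.97 CPM in NSD and at 76.0 and 68.1 CPM in SD. Both SD libraries were lower, and they lay further from each other (s.d. 5.55) than the NSD libraries did (s.d. 0.216). It fell by 0.44 on the log2 scale (standard error 0.073, edgeR adjusted p = 0.0363), and the call was kept whichever library was left out. Hnrnpd (ENSMUSG00000000568, minus strand of chromosome 5, bases 100103794-100126797), also called AUF1, which binds AU-rich elements and governs mRNA decay, stood at 114 and 117 CPM in NSD and at 151 and 139 in SD. Its SD libraries were both higher. Its log2 fold change was 0.32 (standard error 0.072, edgeR adjusted p = 0.0532), with adjusted p = 0.00378 with the block and 0.000365 with DESeq2. Within a library the ratio of Hnrnpd to Hnrnpdl was 1.17 and 1.198 in NSD and 1.99 and 2.04 in SD. Both genes already separated the groups with opposite signs, so this ratio had to separate them too.

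The other 18 hnRNPs were not called by any of these fits. Hnrnpr, which accompanies mRNAs into axons, stood at 59.8 and 61.5 CPM in NSD and 51.3 and 50.4 in SD. It was the family's lowest member per length (2.83 CPM per kb in NSD), but its canonical transcript was also the longest, at 21475 bases. In CPM the lowest hnRNP was Hnrnph3, with a mean of 9.57 in NSD. The log2 fold change of Hnrnpr was -0.25 (edgeR adjusted p = 0.0720, 0.0100 with the block, 0.0327 with DESeq2), under a fold change of 1.2. Hnrnpul2 lay at the other end, with 177 and 183 CPM in NSD and 208 in each SD library (log2 fold change 0.21, edgeR adjusted p = 0.155, 0.0436 with the block, 0.0143 with DESeq2), also under a fold change of 1.2. Hnrnpl, a regulator of splicing through CA-rich elements, had the highest level per length of all 78 genes, at 65.3 CPM per kb in NSD and 59.1 in SD. Its log2 fold change was -0.14 (edgeR adjusted p = 0.285). Hnrnpu, which binds chromatin-associated RNA, stood at 203 in each NSD library and at 197 and 196 in SD. Hnrnpa1, Hnrnpc and Hnrnpk, core proteins of hnRNP particles, had log2 fold changes of 0.06, 0.07 and -0.05. With 1 library left out, Hnrnpc ranged from -0.04 to 0.23 and Hnrnpk from -0.12 to 0.05, so their signs were not stable.

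Among the 39 RBM proteins tested besides Rbm3, Rbm25 alone was called. Rbm25 (ENSMUSG00000010608, plus strand of chromosome 12, bases 83678010-83729897), a splicing regulator that associates with the U1 snRNP, stood at 60.6 and 56.6 CPM in NSD and at 47.6 and 42.8 CPM in SD. The groups did not overlap, and the log2 fold change was -0.37 (standard error 0.077, edgeR adjusted p = 0.0454). Without NSD 1 the adjusted p was 0.116 and without SD 2 it was 0.166. Rbmx, an X-linked relative of the hnRNPs, stood at 35.3 and 38.6 CPM in NSD and 30.4 and 28.3 in SD (log2 fold change -0.33, edgeR adjusted p = 0.0637, 0.00749 with the block, 0.0162 with DESeq2). Rbm6 and Rbm4b passed with the block and not with DESeq2. Rbm6 stood at 33.7 and 28.9 CPM in NSD and 27.0 and 23.7 in SD (log2 fold change -0.30, edgeR adjusted p = 0.141, 0.00836 with the block). It also passed without SD 1 (log2 fold change -0.40, edgeR adjusted p = 0.0288), but its log2 fold change was -0.16 without NSD 1 (adjusted p = 0.526) and -0.20 without SD 2 (adjusted p = 0.541). Rbm4b, a splicing factor, stood at 23.5 and 21.2 CPM in NSD and 19.2 and 17.2 in SD (log2 fold change -0.30, edgeR adjusted p = 0.124, 0.0144 with the block), and the log2 fold change was -0.19 without NSD 1. Rbm5, a tumour suppressor that acts on splicing, was at -0.24 on the log2 scale (edgeR adjusted p = 0.117) and at -0.13 without NSD 1.

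On the higher side, Rbm8a, which encodes the exon junction complex protein Y14, stood at 16.1 and 18.5 CPM in NSD and 20.8 and 20.6 in SD. These did not overlap, but the log2 fold change of 0.26 passed with the block alone (edgeR adjusted p = 0.167, 0.0423 with the block). Rbm8a2, its near copy, had the largest positive log2 fold change of the 77 members tested, 0.35, at 1.63 and 2.17 CPM in NSD and 2.89 and 1.95 in SD. Its groups overlapped and its edgeR adjusted p was 0.555. Without SD 1 its log2 fold change was 0.04, and without SD 2 it was 0.63. The highest level per length among the RBM proteins was that of Rbm39, a splicing coactivator, at 20.6 CPM per kb in NSD, with 59.4 and 58.6 CPM in NSD and 59.2 and 54.8 in SD. Of the genes tested, Rbm46, a germ-cell factor, was the lowest at 0.0698 CPM per kb, too low for its log2 fold change (-0.06, standard error 0.51) to say much.

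Tia1 and Tial1 encode close relatives that bind U-rich RNA, regulate splice sites and nucleate stress granules. Tia1 (ENSMUSG00000071337, plus strand of chromosome 6, bases 86381201-86410387) had the largest fall of all members, from 38.5 and 30.4 CPM in NSD to 21.9 and 18.5 CPM in SD. The NSD libraries were further apart than the SD libraries, and both lay above them. Its log2 fold change was -0.77 (standard error 0.13, edgeR adjusted p = 0.0363), between -0.93 and -0.56 with each library left out and called each time. Tial1 (ENSMUSG00000030846, minus strand of chromosome 7, bases 128041501-128063441) stood at 47.9 and 49.5 CPM in NSD and 42.3 and 42.9 in SD (log2 fold change -0.19, edgeR adjusted p = 0.148). The ratio of Tia1 to Tial1 within a library was 0.804 and 0.615 in NSD and 0.519 and 0.431 in SD. Sfswap (ENSMUSG00000029439, plus strand of chromosome 5, bases 129578285-129648448), the relative of the fly splicing regulator suppressor of white apricot, stood at 42.7 and 38.3 CPM in NSD and 31.2 and 30.1 in SD. It fell by 0.40 on the log2 scale (standard error 0.078, edgeR adjusted p = 0.0405). Its call was lost without NSD 1 (adjusted p = 0.114) and without SD 2 (adjusted p = 0.0582).

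**Figure D3:**
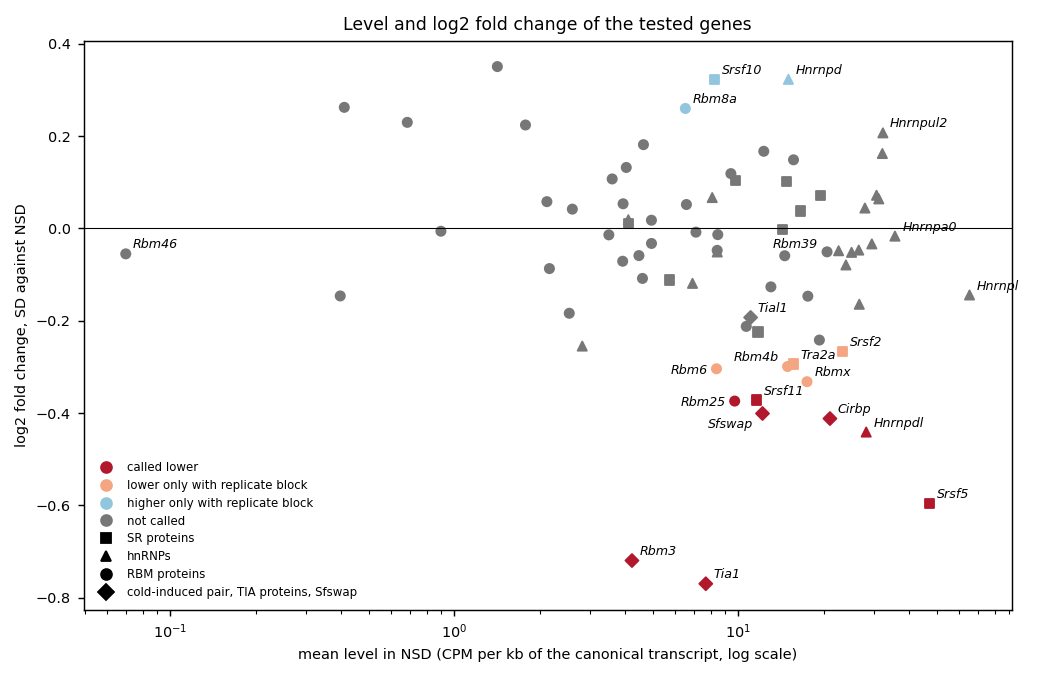
Mean NSD level in CPM per kb of the canonical transcript (horizontal axis, log scale) against log2 fold change of SD against NSD (vertical axis) for the 77 tested genes. Shapes give the family and colours the calls, and the called genes run from Rbm3 at 4.23 CPM per kb to Srsf5 at 47.2.

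All 8 members called lower had the lower of their SD levels in SD 2. The higher of their NSD levels was in NSD 1 for 4 of them and in NSD 2 for the other 4. A list of nuclear long non-coding RNAs, in which the table classes Snhg11 as protein-coding, also had their lowest sum in SD 2, with 8535 and 6218 CPM in NSD 1 and NSD 2 and 6069 and 4983 in SD 1 and SD 2. Of 11 measured, edgeR called 5 lower (Neat1, Meg3, Miat, Snhg11 and Kcnq1ot1) and 0 higher (8 lower and 1 higher with the block). Over all genes 2.33% were called lower and 0.77% higher, and 8.47% and 2.99% with the block. Of the 520 genes called lower without the block, 84 were protein-coding. The list's median log2 fold change was -1.07. Neat1, the scaffold of paraspeckles, stood at 41.2 and 46.6 CPM in NSD and at 22.02 and 12.6 in SD. Norad, a mostly cytoplasmic RNA kept on this list, had the opposite sign (log2 fold change 0.41, edgeR adjusted p = 0.0974). The part of this shift in the values of the RNA-binding proteins was not tested.

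The members called lower shared features in the annotation that the choice of genes did not use. All 8 have at least 1 GENCODE transcript classed as retained intron, compared with 62.3% of the 69 members tested and not called, 54.4% of the protein-coding genes tested, 70.2% of the protein-coding genes called lower and 34.7% of those called higher. They also have more annotated transcripts, with a median of 39.5 against 20 for the members not called, 13 for protein-coding genes, 16 for those called lower and 8 for those called higher. The counts are sums over a gene's transcripts, so which isoforms lay behind a level was not measured. Tia1 has 14 such transcripts of 56, and Srsf11 has 11 of 43, while Srsf5 has 3 of 97 and Rbm3 has 2 of 72. Of the 3 members higher with the block, Rbm8a has 2 of 22, Hnrnpd 1 of 47 and Srsf10 0 of 47. The further members lower with the block were mixed. Rbmx has 0 of 37, Srsf2 1 of 15, Tra2a 2 of 21, Rbm4b 3 of 22 and Rbm6 6 of 49.

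**Figure D4:**
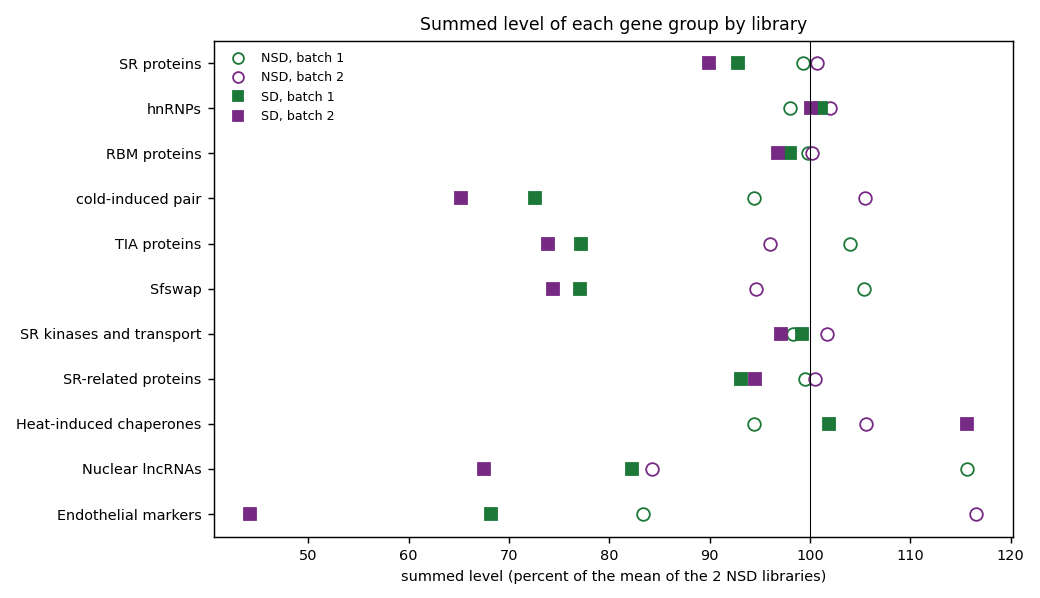
Summed level of each gene group in each library (horizontal axis, percent of the mean of the 2 NSD libraries), with open circles for NSD, filled squares for SD and colours for batches. The SD libraries lie below both NSD libraries for the SR and RBM proteins, the cold-induced pair, the TIA proteins, Sfswap, the SR-related proteins, the nuclear lncRNAs and the endothelial markers, and they overlap for the hnRNPs, the SR kinases and the chaperones.

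The partners of these families were described from lists set by name. Of 10 genes for SR protein kinases and transport, 0 were called by edgeR without the block, where 5 had an unadjusted p under 0.05, all lower, and DESeq2 called 3 lower. With the block 4 were lower, namely Clk1, Clk2, Clk4 and Srpk3, beside 8.47% of all genes and 3.29% of protein-coding genes. Clk1, a kinase of SR protein tails, stood at 25.5 and 19.8 CPM in NSD and 16.4 and 11.8 in SD (log2 fold change -0.69, edgeR adjusted p = 0.0665, 7.93e-05 with the block). Clk4, its close relative, stood at 15.9 and 11.6 CPM in NSD and 9.01 and 8.37 in SD (log2 fold change -0.66, edgeR adjusted p = 0.0531, 0.00116 with the block). Single libraries moved these values, to -0.45 for Clk1 without SD 2 and to -0.39 for Clk4 without NSD 1. Clk2 had a log2 fold change of -0.33 (0.0216 with the block, and a log2 fold change of -0.20 without NSD 1) and Srpk3, at 1.82 and 1.15 CPM in NSD and 0.758 and 0.412 in SD, one of -1.35 (0.00652 with the block). The major brain kinases Srpk1 and Srpk2 and the import receptor Tnpo3 had log2 fold changes of -0.09, 0.09 and 0.08.

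Of 22 SR-related proteins measured, edgeR called 2 lower and 2 higher, beside 2.33% and 0.77% of all genes and 0.54% and 0.952% of protein-coding genes. With the block 5 were lower and 2 higher, beside 8.47% and 2.99% of all genes and 3.29% and 3.77% of protein-coding genes. Clasrp, a protein that binds CLK4, fell from 20.0 and 17.6 CPM in NSD to 11.9 and 7.74 in SD (log2 fold change -0.94, edgeR adjusted p = 0.0397). The LUC7 relatives of the U1 snRNP were split. Luc7l2 fell (log2 fold change -0.35, edgeR adjusted p = 0.0491), and Luc7l rose from 77.3 and 79.9 to 95.1 and 98.4 CPM (log2 fold change 0.30, edgeR adjusted p = 0.0482). Pnn, a speckle protein linked to the exon junction complex, rose from 12.6 and 12.5 to 16.8 and 16.5 CPM (log2 fold change 0.41, edgeR adjusted p = 0.0481). Luc7l3 and Rsrc2 were lower with the block and not with DESeq2, and U2af1 was lower with both. Of the hnRNP-like proteins under other symbols, 18 are described here. edgeR called 0 of them in either direction, where 3 were lower and 1 higher at an unadjusted p under 0.05 and DESeq2 called 1 in each direction. With the block Khdrbs2 was lower (log2 fold change -0.64) and Syncrip, which encodes hnRNP Q, was higher (log2 fold change 0.32, adjusted p = 0.00314).

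**Figure D5:**
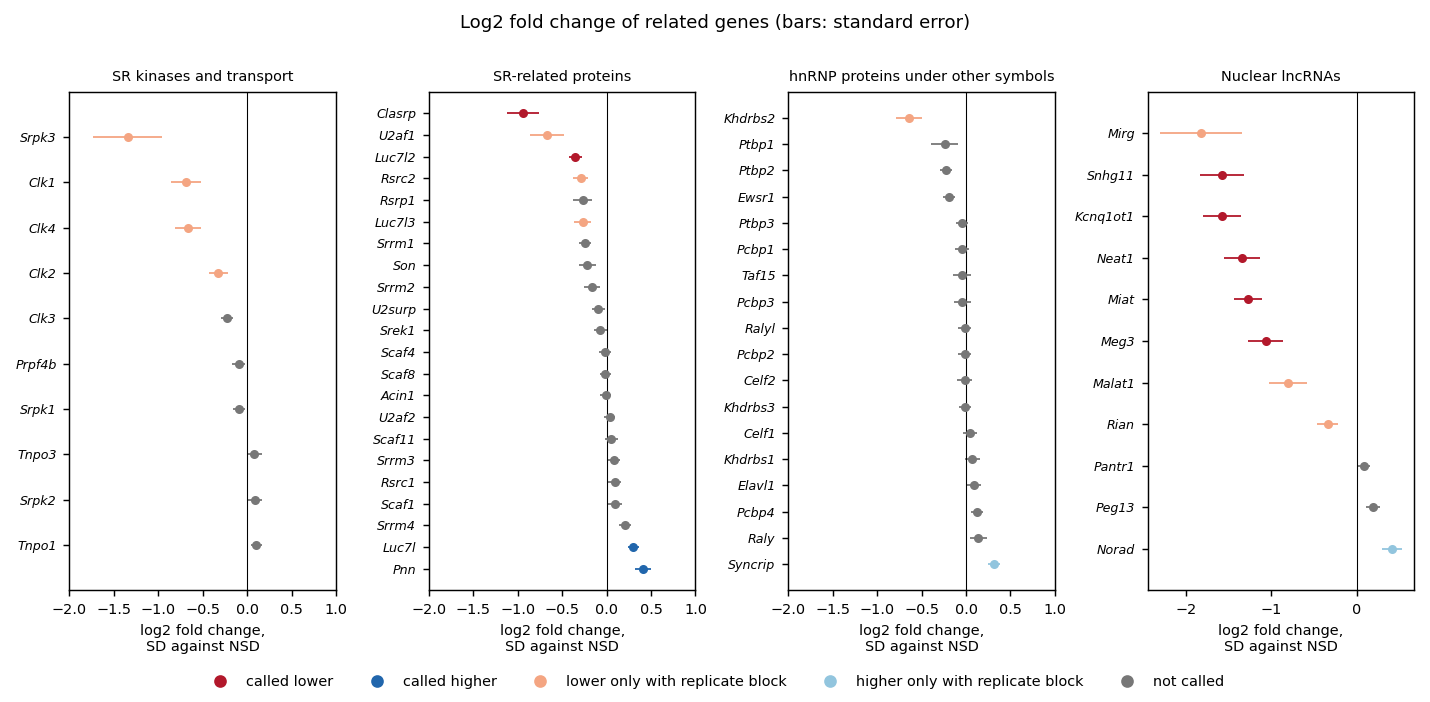
Log2 fold change of SD against NSD (horizontal axis, with a wider range for the nuclear lncRNAs) for the SR kinases and transport factors, SR-related proteins, hnRNP-like proteins under other symbols and nuclear lncRNAs. Bars are standard errors from edgeR with n = 2 libraries per group and colours give the calls. Clk1 and Clk4 lie near -0.69 and -0.66, and Luc7l at 0.30 lies opposite Luc7l2 at -0.35.

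Several members share sequence with other genes or pseudogenes, among which estimated counts had to be split. At 95% identity over at least 200 bases, 27 members have a match of either kind in the table, 15 of them in a pseudogene, and for 22 of the 27 the matching genes hold at least 10% of the member's count. Gm12966, a processed pseudogene of Srsf5 with 99.0% identity, held 38.2% as many counts as Srsf5 and was lower too (log2 fold change -0.49, edgeR adjusted p = 0.0400). The 3 pseudogenes of Rbm3 together held 19.6% of its count. With the pseudogenes' counts added to their members, the log2 fold changes were -0.55 for Srsf5 (edgeR adjusted p = 0.0354) and -0.72 for Rbm3 (adjusted p = 0.0343), and Srsf10 passed the threshold at 0.34 (adjusted p = 0.0467). Exons of Hnrnpdl share 1353 bases with Enoph1 on the opposite strand, which held 37.6% as many counts, and those of Srsf11 share 17 bases with Lrrc40 on the opposite strand. Rbm4b and Rbm4 are near copies of each other, with 130% as many counts for Rbm4 as for Rbm4b. Whether counting used strand is not given in the sources used here, so reads in shared exons may belong to either gene.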

How the data were processed

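RNA was prepared with a stranded, ribosomal RNA-depleted total RNA kit. In Partek Flow the authors trimmed low-quality bases, aligned reads with STAR, and assigned them to Ensembl genes on mm39 with an expectation-maximization model. What was deposited are estimated counts, not normalized, and 55.6% of rows hold a value that is not whole. They were rounded here. The members, gene lists and tests were chosen with earlier results of these data known. Tests used edgeR 4.0.16 (R 4.3.3) on the 22338 genes above 5 counts in all libraries. Scaling was by TMM, the quasi-likelihood model held condition alone, and p-values were adjusted by Benjamini-Hochberg. CPM values divide counts by library sizes scaled with the TMM factors. The fits were tested on simulated data. p-values measure the spread between pools. The named members are Rbm3, Cirbp, Tia1, Tial1, Sfswap, those called in any of the edgeR, block or DESeq2 1.42.0 fits, family extremes in level or change, and members with near copies. Other members were named as family examples after their values were seen.

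The labels number the batches as the replicates, so the numbers pair the libraries. Deviations of same-numbered libraries correlated at 0.170 over all genes and at -0.262 over the 77 members tested. Transcript lengths, exon overlaps and promoters came from a later GENCODE release of the same build (GRCm39), where all 78 gene IDs were found and 11 had the coordinates of the table. Alternatives are given with the closing results. Some items are not reported here.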

Additional observations from a re-analysis of the deposited data

How the results depend on the processing

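All 18 members followed under the alternatives kept their direction in every fit. Rbm3 and Srsf5 were called in 9 of 10 alternatives, Tia1 and Hnrnpdl in 8, Sfswap in 5, Srsf11 and Rbm25 in 4 and Cirbp in 3. Members called lower numbered 5 with DESeq2's size factors, 2 without a count filter, 0 with filterByExpr (18 at an unadjusted p under 0.05), 4 among protein-coding genes only and 13 with the replicate block. Members called higher, 0 in the fit reported, numbered 2 with DESeq2's size factors, 2 with DESeq2, 3 with the replicate block and 2 with pseudogene counts added, an alternative chosen after seeing the data. All genes called lower, 520 in the fit reported, numbered 1296 with DESeq2, 80 without a filter, 0 with filterByExpr, 39 among protein-coding genes and 1891 with the block. All genes called higher, 172 in the fit reported, numbered 671, 50, 1, 51 and 668 in the same order. With each library left out in turn, which assumes that a lone library varies like the other group, members called ranged from 4 to 10 lower and from 0 to 1 higher, all genes from 87 to 1953 lower and from 144 to 321 higher, and the RBM median from -0.0096 to 0.0359. The causes were not tested. With pseudogene counts added, 7 members were lower, since Srsf11 moved to an adjusted p of 0.0518.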

Other observations

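The promoter windows of the 78 members held more CpG dinucleotides than those of protein-coding genes in general, with a median of 14.5 against 11. The GC box was present in 46.2% of the members' windows and 44.2% of all windows, the E-box in 3.85% and 7.13%, and the heat shock element in 10.3% and 5.69%. Hnrnpa1 and Hnrnpk are among the members whose copies were given more counts than the member itself. Gm10052, a processed pseudogene identical to Hnrnpa1 over 960 bases, was given 109% as many counts as Hnrnpa1, and the 2 copies of Hnrnpk were given 111% as many as Hnrnpk. With pseudogene counts added, Hnrnpa1 stood at 120 and 125 CPM in NSD and 130 and 128 in SD, and Hnrnpk at 250 and 279 in NSD and 251 and 265 in SD.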
